A study of Nasonia vitripennis with 15 samples.

Results

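The comparison described here set testes of the parasitoid wasp Nasonia vitripennis labelled 36 °C and 10 h against testes labelled 25 °C and 10 h. The members were taken from the labels alone: the 3 pools A, B and C of each temperature at 10 h, 6 of the 15 RNA libraries of the series. All 6 pools came from strain AsymC and carried the stage label of white nymphs, the pale pupae whose eyes have not yet coloured, so that temperature was the only label that differed. The other 9 libraries, used here only as background, were pools at 0 h and 24 h at 25 °C and at 24 h at 36 °C, and those at 24 h carried a later stage label, that of white nymphs with red eyes. The labels give 60 testes per pool, which is many animals in 1 library, and the study's methods give a larger number. Nothing in the labels says that pools A, B and C came from separate cultures, so the p-values below measure the spread between these pools.

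Cells that meet heat make chaperones, proteins that bind unfolded proteins and keep them from clumping. Small heat shock proteins hold such proteins without using ATP, and the ATP-driven Hsp70 and Hsp90 chaperones refold them, some of them made only under heat and others (such as the cognate Hsc70) made at all times. Males of this wasp are haploid, and in the pupal testis germ cells pass from divisions to the building of the sperm tail, whose beat is driven by axonemal dyneins.

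The 6 libraries held 6629427, 7154421 and 1808085 counts in 36 °C pools A, B and C, and 4362798, 3177175 and 1813941 counts in 25 °C pools A, B and C. Levels are given as CPM (counts scaled to a common library size, with TMM factors over the 15 libraries). They can be compared between pools for 1 transcript but not between transcripts, whose lengths differ. Pool B at 36 °C stood apart from pools A and C, though it carries the same hour and stage labels, and whether those labels hold for it could not be settled from the data. Across the 8807 transcripts with enough counts in the 15 libraries, its log2 CPM correlated at 0.933 and 0.904 with 36 °C pools A and C, which correlated at 0.982 with each other. Its closest libraries were the 3 pools of 36 °C at 24 h (0.971 to 0.975). On the first principal component (47.3% of the variance), which ran from the pools at 0 h to those at 24 h at 25 °C, 36 °C pools A and C lay at -42.2 and -56.1, among the pools at 0 h (-62.9 to -37). Pool B lay at 32.1, and the 25 °C pools A, B and C at 10 h lay at -16.7, 23.4 and -13.3. On the second component (19.2%), all 3 pools of 36 °C at 10 h (-29.3 to -20) lay far from all 3 of 25 °C (18.7 to 20.3). The 36 °C pools thus shared a position that set them apart from 25 °C, and differed among themselves along the direction that separated the early from the late pools. Each result is given with and without 36 °C pool B.

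**Figure D1:**
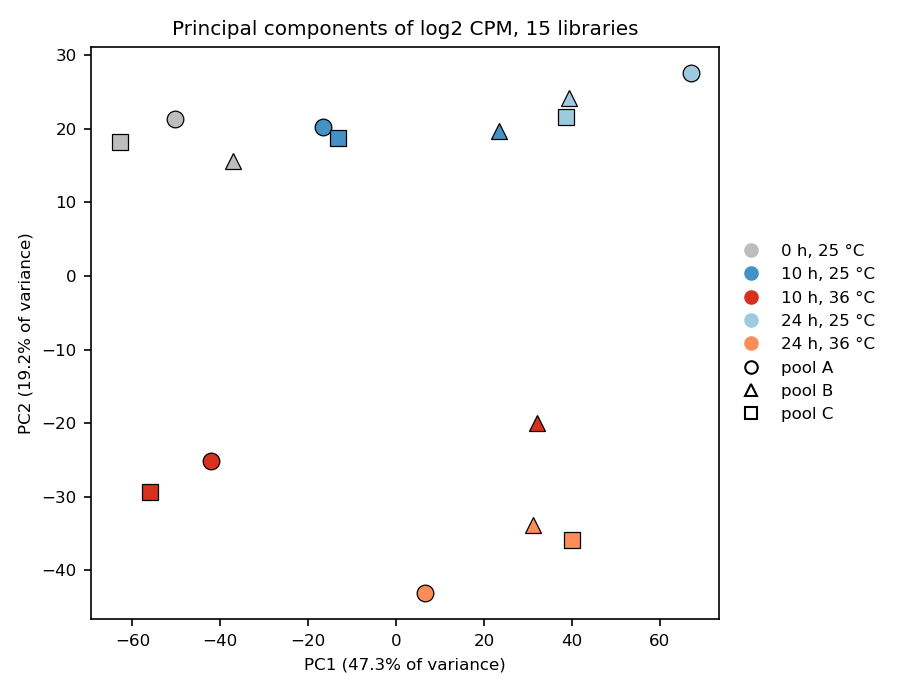
First 2 principal components of log2 CPM over 8807 transcripts in the 15 libraries, with the share of variance on each axis; colour gives hour and temperature and the marker shape gives the pool. The 36 °C pools of 10 h lie between -29.3 and -20 on PC2, below all 25 °C pools, while on PC1 pools A (-42.2) and C (-56.1) and pool B (32.1) lie on opposite sides of the 25 °C pools A (-16.7) and C (-13.3).

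With all pools, 38 of 8252 tested transcripts (0.46%) were higher at 36 °C and 9 (0.109%) were lower in edgeR's quasi-likelihood test, at an adjusted p under 0.05. Without 36 °C pool B, 965 of 8263 (11.7%) were higher and 1094 (13.2%) were lower. All 47 transcripts passed with all pools also passed without it. The common biological coefficient of variation, the spread between pools that the fit allows for, was 0.299 with all pools and 0.181 without 36 °C pool B. With the pool letter as a replicate block, which pairs pool A with A, B with B and C with C, 131 transcripts were higher and 64 lower, and these held all 47. The count of calls depended on single libraries. Without 25 °C pool A it was 2 higher and 0 lower, without 25 °C pool B 1 and 0, and without 25 °C pool C 0 and 0, in edgeR, where 881, 857 and 838 transcripts had an unadjusted p under 0.05 (no other tool was run on these libraries). Without 36 °C pool A there were 13 and 0 (583 at the unadjusted threshold), and without 36 °C pool C 28 and 3. The direction of the tested transcripts among the 47 was the same in each of these fits. Every 36 °C pool lay above every 25 °C pool for 735 transcripts (8.91%) and below for 785 (9.51%). Without 36 °C pool B these were 2260 (27.4%) and 2296 (27.8%).

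A run of neighbouring genes on chromosome 2 held 5 of the 38 transcripts that rose. The run has 6 protein-coding genes that follow each other in the RefSeq annotation, NV13797 to NV13802. The study's ortholog table pairs 5 of them with a cluster of fly small heat shock proteins, and NV13800, the fourth in the run, has no such entry and no descriptive symbol. All members but NV13799 rose.

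NV13802 stood at 917, 553 and 660 CPM in 36 °C pools A, B and C, and at 38.6, 30.9 and 35.3 CPM in the 25 °C pools. The lowest 36 °C pool was thus far above the highest at 25 °C. The log2 fold change was 4.38 (SE 0.283, adjusted p = 0.000507 in edgeR), or 4.52 without 36 °C pool B (SE 0.199, adjusted p = 5.81e-09).

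NV13800 stood at 5074, 2718 and 4420 CPM at 36 °C against 231, 172 and 165 CPM at 25 °C, a 22-fold difference (log2 fold change 4.46, SE 0.414, adjusted p = 0.00405 in edgeR). Pool B was the lowest of the 36 °C pools, at 57.2% of the mean of pools A and C. NV13801 stood at 4183, 1681 and 3808 CPM against 416, 241 and 386 CPM (log2 fold change 3.25, SE 0.452, adjusted p = 0.0173). NV13797, in 1 of its 3 transcripts, stood at 2470, 1343 and 2057 CPM against 273, 262 and 289 CPM (log2 fold change 2.86, SE 0.329, adjusted p = 0.00706). The other 2 transcripts of this gene had log2 fold changes of -0.21 and -0.35 and did not pass, and the sources used here do not say how reads common to the 3 were shared out. NV13798 stood at 1684, 509 and 1606 CPM against 127, 108 and 119 CPM (log2 fold change 3.46, SE 0.456, adjusted p = 0.0166). Here pool B stood at 30.9% of the mean of pools A and C, the smallest such share among the 38 transcripts that rose, and was still above all 25 °C pools. The log2 fold changes of NV13797, NV13798, NV13800 and NV13801 without 36 °C pool B were 3.07, 3.83, 4.67 and 3.55 (adjusted p = 1.28e-07, 1.06e-08, 1.18e-08 and 4.36e-07 in edgeR).

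NV13799, in the middle of the run, did not follow. It stood at 5907, 5653 and 5530 CPM at 36 °C and at 5469, 4614 and 3818 CPM at 25 °C. The pools of the 2 temperatures did not overlap, but the log2 fold change of 0.33 (SE 0.37, adjusted p = 0.74 in edgeR) did not pass, with or without 36 °C pool B (0.33, adjusted p = 0.317). Its level was 3358 to 4440 CPM at 0 h, before any heat. The sixth gene of the small heat shock protein list, NV12521 (ortholog of fly CG14207, outside the run), had 27.4, 49 and 22.1 CPM at 36 °C against 39.8, 45.2 and 36.9 CPM at 25 °C. It did not pass with all pools (log2 fold change -0.26, with an edgeR adjusted p = 0.755) and was lower without 36 °C pool B (-0.67, adjusted p = 0.0492). Of the list's 8 tested transcripts, 4 were higher and 4 did not pass, where 0.46% of all 8252 were higher. The list's median log2 fold change was 1.6, against 0.004 over all 8252. Leaving out 36 °C pool B, 4 were higher and 1 lower, where 11.7% and 13.2% of all transcripts were. The calls of NV13797, NV13798 and NV13800 were lost without any 1 of the 25 °C pools (adjusted p = 0.0729 to 0.223 in edgeR), and that of NV13801 was lost in the same way (0.164 to 0.226) and without 36 °C pool A (0.0598). That of NV13802 was lost only without 25 °C pool C (0.057).

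**Figure D2:**
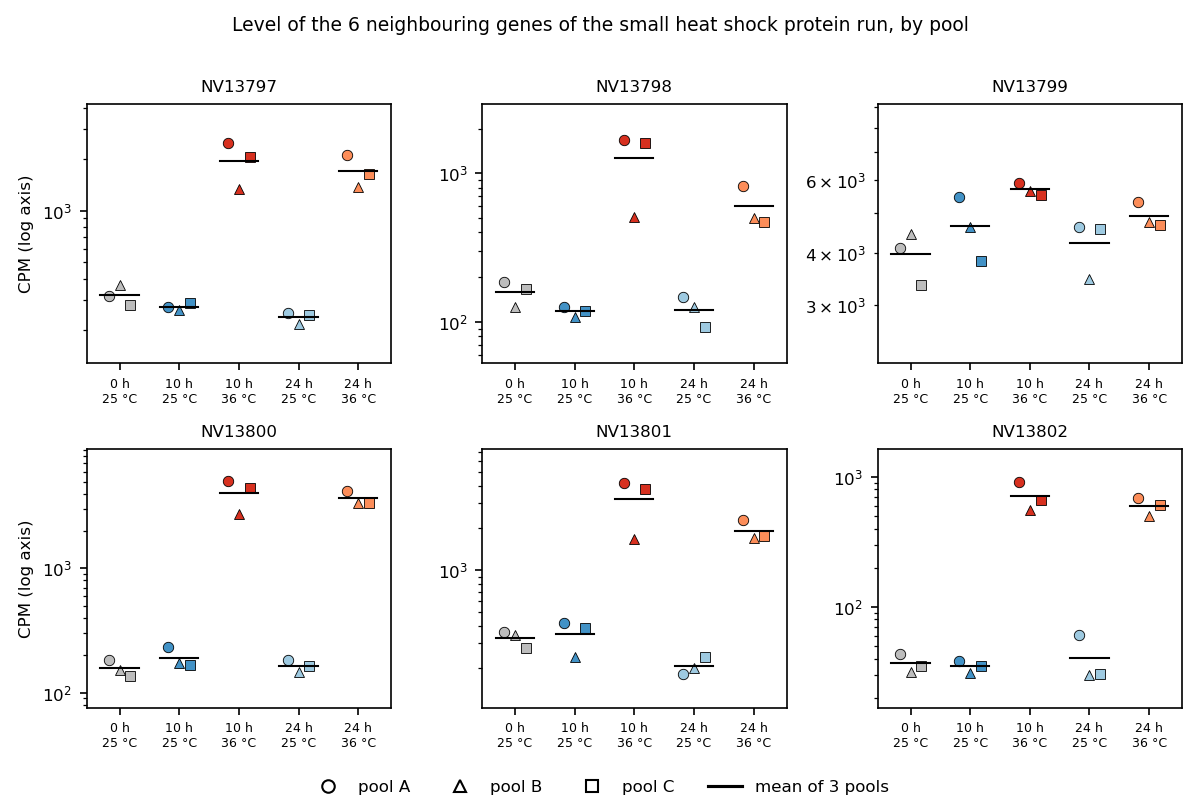
Level in CPM, on a log axis of its own range in each panel, of NV13797 (its transcript that rose) and NV13798 to NV13802 in each pool of the 5 groups, with a line at the mean of 3 pools. The 3 pools of 36 °C at 10 h lie above every 25 °C pool in each panel, far above in 5 (553 CPM in the lowest, pool B, of NV13802, against 38.6 CPM in the highest 25 °C pool of that hour) and narrowly in NV13799 (5530 against 5469 CPM).

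The other transcripts that rose carried few names. The 38 transcripts belonged to 37 genes, of which Or2 alone had a descriptive symbol, and their log2 fold changes ran from 1.30 to 6.49 with a median of 2.44. In 22 of them 36 °C pool B was the lowest of the heated pools and in 11 the highest, at 30.9% to 180% of the mean of pools A and C. Genes that are not annotated in the tables used here are given by number only, without a role.

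NV13994 had the smallest adjusted p outside the run, with 1620, 1922 and 1658 CPM at 36 °C against 113, 82.7 and 69.6 CPM at 25 °C (log2 fold change 4.32, SE 0.322, adjusted p = 0.000885 in edgeR). Pool B was the highest of the heated pools here, so that the order within the small heat shock protein run was not repeated. LOC100679126, its direct neighbour in the RefSeq order, stood at 211, 147 and 221 CPM against 49.5, 50.9 and 53.3 CPM (log2 fold change 1.95, SE 0.205, adjusted p = 0.00606). NV50117 was also highest in pool B, with 598, 940 and 447 CPM at 36 °C against 99.9, 117 and 109 CPM at 25 °C (log2 fold change 2.63, SE 0.304, adjusted p = 0.00706), or 2.30 without that pool.

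The smallest rises included NV12745, and NV11657 was among those near the threshold. NV11657 stood at 6001, 4440 and 5297 CPM at 36 °C against 1294, 1286 and 1372 CPM at 25 °C, with little spread between the 25 °C pools (log2 fold change 2.02, SE 0.348, adjusted p = 0.0466 in edgeR). NV12745 had 576, 400 and 538 CPM against 221, 186 and 222 CPM (log2 fold change 1.30, SE 0.224, adjusted p = 0.0466), the smallest rise that passed. LOC103317197 (723, 357 and 872 CPM against 134, 85.9 and 132 CPM, log2 fold change 2.51) and NV11635 (log2 fold change 2.41) have overlapping spans in the RefSeq annotation. Its assembly, Nvit_psr_1.1, is not the one on which reads were counted, and exons and strands were not compared. The strand setting of the counting is not stated either, so whether the 2 share reads is not known.

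Some transcripts were scarce at 25 °C and present at 36 °C. LOC100678432 stood at 99.5, 40.2 and 89.1 CPM at 36 °C against 3.32, 1.91 and 4.75 CPM at 25 °C (log2 fold change 4.59, SE 0.462, adjusted p = 0.00582 in edgeR). Or2 (NV30431), named as an odorant receptor, a membrane protein of insect smell, stood at 21.4, 11.4 and 24.6 CPM against 0.71, 0.636 and 0.527 CPM. These are 151, 77 and 50 counts against 3, 2 and 1 counts, with a log2 fold change of 4.85 (SE 0.498, adjusted p = 0.00582), and Or2 was the only 1 of 37 tested odorant and gustatory receptor transcripts to pass in edgeR with all pools. DESeq2 called 3 of them higher and 1 lower, and the replicate block 2 higher and 1 lower. The fit without 36 °C pool B called 6 higher and 5 lower of 39, near the 11.7% and 13.2% of all transcripts. NV17637 (7 transcripts in its gene) had 245, 155 and 105 counts at 36 °C and 4, 9 and 0 at 25 °C. One transcript of NV12244 (5 in its gene) had 85, 84 and 26 counts at 36 °C and 0, 0 and 1 at 25 °C, too few for a fold, and passed (adjusted p = 0.0065). A second transcript of NV12244 rose as well, with 123, 115 and 33 counts against 11, 15 and 5 (log2 fold change 2.35, SE 0.356, adjusted p = 0.0258). In these transcripts the 3 heated pools never overlapped the 25 °C pools, and pool B was the lowest heated pool of LOC100678432, Or2 and NV17637 and level with the others in both transcripts of NV12244.

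The 9 transcripts that fell had a median log2 fold change of -1.24. Pool B lay at 90.8% to 133% of the mean of pools A and C in the 8 with counts at 36 °C. The 9 were called with pool B in the test, which favours transcripts in which it lay near pools A and C. Its closeness here is thus no separate result about pool B. LOC100678070 stood at 2.7, 3.11 and 1.97 CPM at 36 °C against 31, 14.6 and 22.7 CPM at 25 °C (log2 fold change -3.04, SE 0.386, adjusted p = 0.0133 in edgeR). NV14866 had 135, 122 and 134 CPM against 308, 283 and 336 CPM (log2 fold change -1.22, SE 0.171, adjusted p = 0.0173). LOC103317805 had 143, 144 and 121 CPM against 365, 338 and 321 CPM (log2 fold change -1.29, SE 0.179, adjusted p = 0.0173). In both, the heated pools were close together and below the lowest 25 °C pool. The falls of NV11159, NV14444, LOC100679997, LOC100680521 and LOC103317946 were of like size, with log2 fold changes of -1.38 to -1.16. One transcript of NV13748 (2 in its gene) had 0 counts in every heated pool and 26, 25 and 5 counts at 25 °C (adjusted p = 0.0322). It also had 0 counts in 1 of the 25 °C pools at 24 h and 2 of those at 0 h. The calls of NV14866 and LOC103317805 were lost without 36 °C pool A (adjusted p = 0.136 and 0.134 in edgeR) or C (0.0538 and 0.0606), and all 9 were lost without any 1 of the 25 °C pools.

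**Figure D3:**
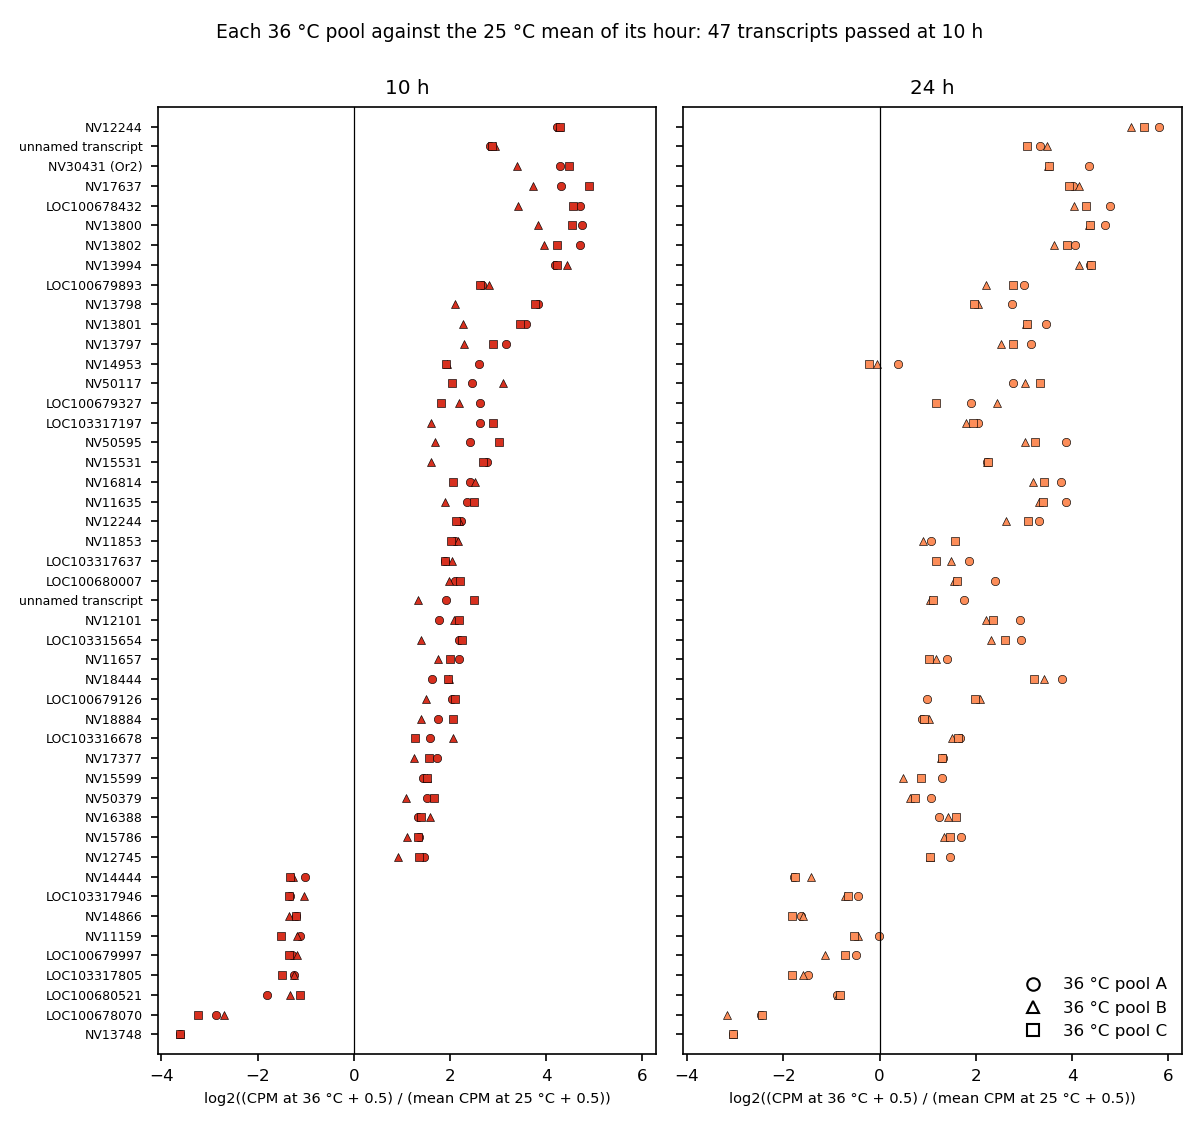
The 47 transcripts passed at 10 h, ordered by fitted log2 fold change: each point is 1 heated pool, as log2 of its CPM plus 0.5 over the 25 °C mean of the same hour plus 0.5, at 10 h (left) and 24 h (right). At 10 h no heated pool crosses 0 in any of the 47, which were called with all these pools in the test. Pool B (triangles) is the lowest of the heated pools in 22 of the 38 that rose. At 24 h NV14953 has heated pools on both sides of 0 and NV11159 has 1 pool close to it.

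Outside the small heat shock protein list, no chaperone known here by list or by symbol passed with all pools. Transcripts that rose without a descriptive symbol were not checked for being chaperones. HSC70 (NV11212), the cognate member of the Hsp70 family, stood at 6348, 5293 and 5952 CPM at 36 °C and at 4037, 4415 and 3619 CPM at 25 °C. All heated pools were above all 25 °C pools, but the log2 fold change of 0.57 (SE 0.362, adjusted p = 0.549 in edgeR) passed only without 36 °C pool B (0.64, SE 0.22, adjusted p = 0.0462). Chordc1, a partner of Hsp90, likewise did not overlap, with 199, 155 and 192 CPM against 142, 121 and 135 CPM (log2 fold change 0.49 with adjusted p = 0.261 in edgeR for all pools, 0.59 with adjusted p = 0.0102 once 36 °C pool B is left out). Hsp83 (NV11936), the fly name for Hsp90, had 2992, 1791 and 2838 CPM against 3428, 2939 and 3026 CPM, with overlapping groups and no call in either fit (log2 fold changes -0.27 and -0.07, adjusted p = 0.774 and 0.826). The list of other chaperones and their partners (among them J domain partners of Hsp70, unc-45, Tpr2, Hsp83 and the chaperonin subunit CCT6) had 12 tested transcripts, none of which passed in edgeR with all pools (1 higher at an unadjusted p under 0.05, and 0 in DESeq2), with log2 fold changes of -0.58 to 0.79 and a median of -0.12. Leaving out 36 °C pool B, where 11.7% of all transcripts were higher and 13.2% lower, 1 of its 11 tested transcripts was higher and 2 were lower. The higher transcript was of Tpr2 (0.99, adjusted p = 0.0267 in edgeR), whose other 2 transcripts did not pass (-0.71 and -0.11, adjusted p = 0.315 and 0.863). Both lower ones were of mrj, a gene of 9 transcripts. HSC70 and Chordc1 were the 2 of 4 chaperones with a symbol that passed without 36 °C pool B, and 0 of these 4 passed with it in edgeR (1 at an unadjusted p under 0.05, and 0 in DESeq2).

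The transcripts called at 10 h were found on the same side in other libraries. The pools of 24 h share no library with those of 10 h. All 38 that rose at 10 h had a higher mean log2 CPM at 36 °C than at 25 °C at 24 h, and in 37 of them the pools of 24 h did not overlap, where 46.5% and 20.15% of all transcripts tested did so. All 9 that fell were lower at 24 h, 7 without overlap, where 24.3% of all tested lay below without overlap. The median log2 difference of the 38 was 2.24 for pools A and C at 10 h, 2.09 for pool B at 10 h and 2.45 at 24 h. Across the 47 transcripts, the difference of 36 °C pool B from the 25 °C mean correlated with the heat difference at 24 h at 0.933, and those of pools A and C at 0.916 and 0.926, as a description over transcripts chosen for their size. NV13800 held 4208, 3376 and 3387 CPM at 24 h at 36 °C against 182, 146 and 165 CPM at 25 °C, close to its level after 10 h. NV13798 held 823, 504 and 472 CPM against 146, 125 and 91.5 CPM, so that pools A and C at 10 h were above all pools of 24 h and pool B was within them. NV18444 went the other way, from 15.5, 20 and 19.7 CPM at 10 h to 52.8, 40.4 and 35.1 CPM at 24 h at 36 °C, with 2.51 to 5.73 CPM in the 25 °C pools of both hours. At 25 °C, 7 of the 38 (18.4%) fell and 3 (7.89%) rose without overlap between 0 h and 24 h, where 25.7% and 24.1% of all tested did so, and their median log2 difference was -0.13.

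The set that passed without 36 °C pool B was larger and lay along the change over time at 25 °C. Of the 965 higher transcripts, 955 had enough counts over the 15 libraries, and 806 of these (84.4%) were lower at 24 h than at 0 h at 25 °C, against 53.9% of all tested. Of the 1094 lower ones, 1090 had enough counts, and 982 of these (90.1%) were higher at 24 h than at 0 h, against 46.1%. Heated pools A and C thus sat on the side of the pools at 0 h. Pool B was spread over both sides. Among the 965 it lay above all 25 °C pools in 425 (44%), within them in 382 (39.6%) and below them in 158 (16.4%). Among the 1094 it lay above all of them in 458 (41.9%), within them in 317 (29%) and below in 319 (29.2%). Over all 8263 tested these shares were 26.3% above, 42.3% within and 31.4% below. The median log2 difference from the 25 °C mean in the higher set was 0.89 in pools A and C and 0.16 in pool B, of the same sign, and in the lower set it was -1.17 and 0.13, of opposite sign.

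Over all 8807 transcripts, the difference of pools A and C from the 25 °C mean correlated at -0.574 with the change from 0 h to 24 h at 25 °C, and the difference of pool B correlated at 0.495. With the heat difference at 24 h, which shares the 24 h libraries at 25 °C with that change, the correlations were 0.608 and 0.325. These are correlations across transcripts, which are not independent replicates, and the differences of pools A and C and of pool B are taken from the same 25 °C mean. The part that the pools' position between 0 h and 24 h has in the transcripts passed only without pool B was not tested.

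**Figure D4:**
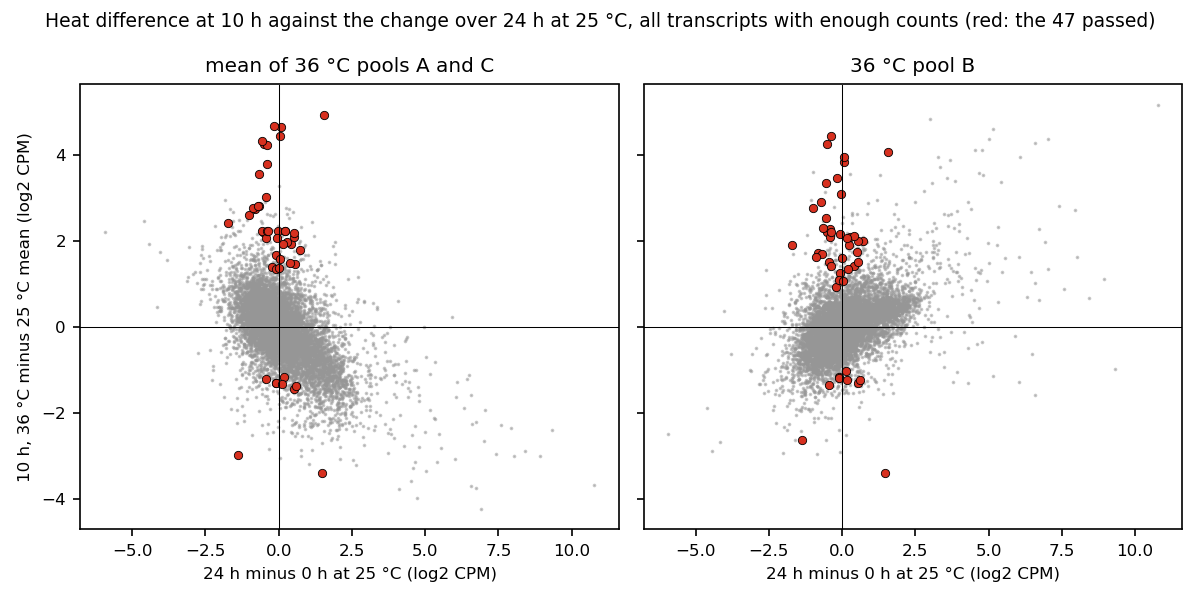
Difference of the mean of heated pools A and C (left) and of heated pool B (right) from the 25 °C mean at 10 h, against the change from 0 h to 24 h at 25 °C, both in log2 CPM, for 8807 transcripts (grey) and the 47 passed with all pools (red). The grey cloud slopes downward on the left (r = -0.574) and upward on the right (r = 0.495). The red points lie on the same side of 0 in both panels, which follows from their being called with pool B in the test.

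The sperm motility list shows the pattern of pool B in named genes. The study named its 5 genes from those it reports as upregulated between white and red-eyed nymph testes of this series. The list was thus chosen by a change along which heated pools A and C lay with the pools at 0 h. Its values below are a description and no separate evidence of a heat effect on motility genes. With all pools, 0 of its 5 tested transcripts passed in edgeR (0 at an unadjusted p under 0.05, and 0 in DESeq2), with a median log2 fold change of -0.42. Leaving out 36 °C pool B, all 5 were lower, where 13.2% of all 8263 transcripts were, with a median of -1.33 against 0.018. NV16259, ortholog of the fly dynein heavy chain Kl5, stood at 391, 1210 and 303 CPM at 36 °C against 835, 1650 and 1111 CPM at 25 °C. Pools A and C were below every 25 °C pool and pool B was within them, and pool B was also the highest at 25 °C. The log2 fold change was -0.89 with all pools (SE 0.521, adjusted p = 0.521 in edgeR) and -1.76 without 36 °C pool B (SE 0.277, adjusted p = 0.000926). At 25 °C this transcript stood at 424, 1057 and 436 CPM at 0 h and at 1465, 1709 and 1857 CPM at 24 h. The dynein NV14122 had 518, 1506 and 394 CPM against 895, 1575 and 1036 CPM, and was lower only without 36 °C pool B (log2 fold change -1.33, adjusted p = 0.00248). NV10124, ortholog of the dynein intermediate chain Dnai2, had 724, 1289 and 537 CPM against 1201, 1230 and 1042 CPM (log2 fold change -0.84 without 36 °C pool B, adjusted p = 0.00776). In pools of whole testes, fewer cells of a type and less RNA per cell cannot be told apart.

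Cyclin B, which with the kinase Cdk1 drives cells into division, stood at 282, 586 and 219 CPM at 36 °C against 643, 741 and 691 CPM at 25 °C. Here pool B too lay below all 25 °C pools, though above the other heated pools, and the call was again made only without it (log2 fold change -0.90, SE 0.358, adjusted p = 0.315 in edgeR with all pools, and -1.43, SE 0.188, adjusted p = 0.000215). Cdk1 had 30.5, 65.2 and 26.6 CPM against 67.5, 73.8 and 76.5 CPM (log2 fold changes -0.78 and -1.30, adjusted p = 0.344 and 0.000618). In pools A, B and C at 0 h, cyclin B stood at 340.3, 543.7 and 294.5 CPM and Cdk1 at 32.5, 58.6 and 23.7 CPM. The part that the pools' position between 0 h and 24 h has in these differences was not tested. Of the meiosis list, 0 of 19 tested transcripts passed in edgeR with all pools (3 lower at an unadjusted p under 0.05, and 0 in DESeq2), and without 36 °C pool B 2 were higher and 5 lower, where 11.7% and 13.2% of all transcripts were. In the list of cell cycle genes by symbol, 2 of 15 were higher, a share near that of all transcripts, and 3 lower without that pool and 0 passed with it (2 lower at the unadjusted threshold, and 0 in DESeq2).

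The few ribosomal protein transcripts that could be told by symbol lay the other way, and others of the family were not looked at. All 4 with such a symbol (Rpl6, Rpl7a, Rpl39 and Rpl41) were higher without 36 °C pool B, where 11.7% of all transcripts were. Their median log2 fold change was 0.76, and they did not pass with all pools (0.54). Rpl7a stood at 1187, 698 and 1250 CPM at 36 °C against 861, 628 and 662 CPM at 25 °C, pool B within the 25 °C range and pools A and C above it. Its level was 1098, 768 and 1033 CPM at 0 h. Of 72 tested transcripts of oxidative phosphorylation, 12 were higher and 4 lower without 36 °C pool B, against 11.7% and 13.2% of all transcripts, and 0 passed in edgeR with all pools (6 higher and 2 lower at the unadjusted threshold, and 1 higher in DESeq2 and with the replicate block).

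**Figure D5:**
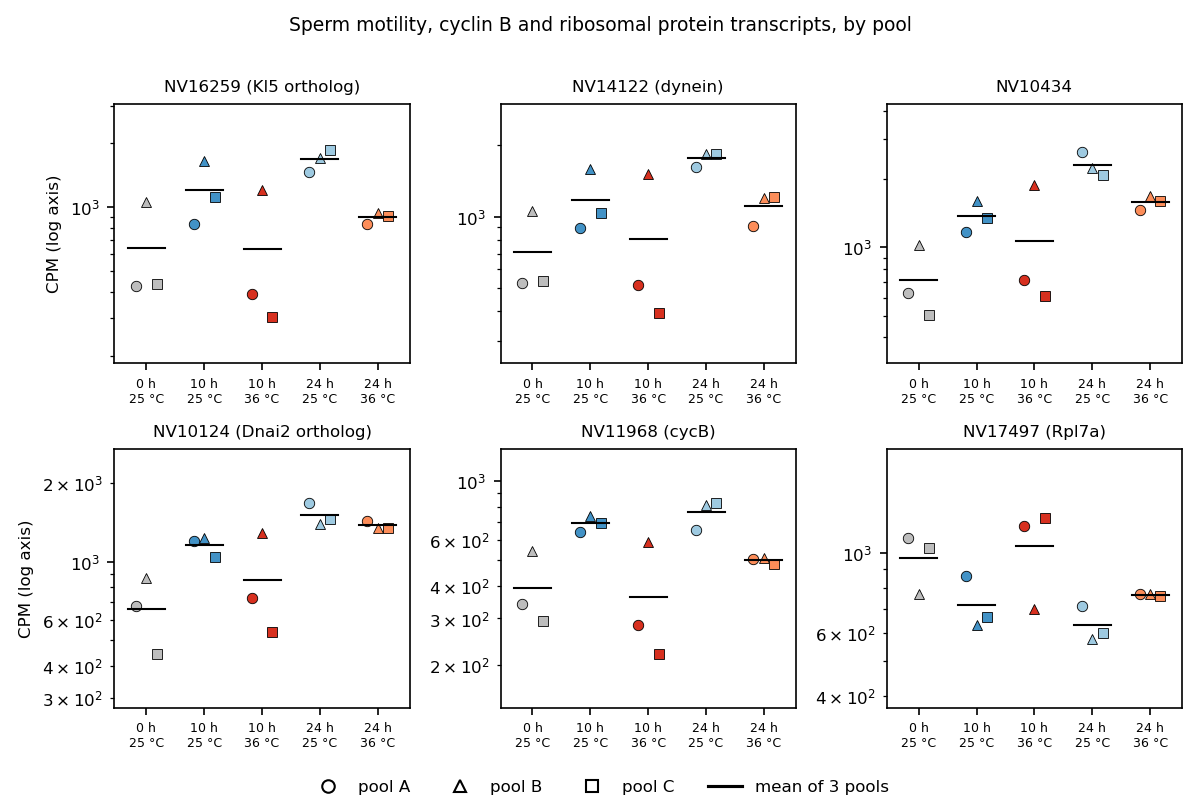
Level in CPM, on a log axis of its own range in each panel, of 4 sperm motility transcripts, cycB and Rpl7a in each pool of the 5 groups, with a line at the mean of 3 pools. Heated pools A and C of 10 h lie below the 25 °C pools of that hour in the first 5 panels (391 and 303 CPM against 835 to 1650 CPM in NV16259) and above them in Rpl7a, with pool B (triangles) apart from them in each panel.

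Markers of other cell types moved with the pools, and their part in the results was not tested. The list of muscle genes summed to 22.6, 479 and 13.3 CPM in heated pools A, B and C and to 86, 510 and 111 CPM in 25 °C pools A, B and C, nearly all of it from NV18317, the ortholog of fly flight muscle actin. Pool B was high at both temperatures, and the single tested transcript did not pass with all pools (log2 fold change -0.43, adjusted p = 0.918 in edgeR) or without 36 °C pool B (-3.68, adjusted p = 0.155). Of its 6 transcripts, 1 to 4 were at 0 in each of these pools. The 61 cuticle protein transcripts, markers of epidermis, summed to 173, 829 and 151 CPM at 36 °C and to 201, 462 and 160 CPM at 25 °C, again highest in pool B, with 27 to 43 of them at 0. Of 13 tested, 0 passed in edgeR with all pools (1 higher and 1 lower at the unadjusted threshold, and 1 and 1 in DESeq2). Without 36 °C pool B, 1 was higher and 2 lower, near the 11.7% and 13.2% of all transcripts. Hexamerins, storage proteins of the fat body, summed to 30.8, 53.4 and 13.8 CPM at 36 °C and 75.1, 76 and 56.4 CPM at 25 °C, with no overlap. Most of the sum came from a transcript of Hex70b (22.4, 42.8 and 8.86 CPM against 65.1, 68.7 and 50.1 CPM). This was lower without 36 °C pool B (log2 fold change -1.83, with an edgeR adjusted p = 0.00148) and not with all pools (-1.24, adjusted p = 0.264). Hex109, the other tested transcript, had overlapping pools and did not pass in either fit (0.23 with all pools, 0.04 without 36 °C pool B). Of these 2 tested hexamerin transcripts 1 was lower with the replicate block. The trypsin ortholog NV18589 (LOC100119982), taken as a gut marker, lay the other way from the muscle and hexamerin sums, at 2.98, 1.04 and 3.94 CPM at 36 °C against 0.947, 0 and 0.527 CPM at 25 °C, with no overlap. It had too few counts to be tested with all pools, and was higher without 36 °C pool B (log2 fold change 2.60, SE 0.785, adjusted p = 0.0261 in edgeR). The small heat shock protein list, for comparison, summed to 15220, 9837 and 13710 CPM at 36 °C and 6409, 5343 and 4736 CPM at 25 °C.

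In the remaining lists few transcripts passed. With all pools and in edgeR, 0 passed of 5 in the piRNA pathway and germ plasm, 7 in spermatid differentiation, 3 of the axoneme, 9 named for oogenesis, 4 for Notch receptor processing, 5 of redox genes, 7 of energy metabolism, 7 serine proteases, 12 cytochrome P450s, 18 glutathione S-transferases, 17 of recombination and repair, 11 translation factors, 6 of protein breakdown and 9 nicotinic receptors and ion channels. Within these lists, at most 3 members of any 1 list had an unadjusted p under 0.05 in 1 direction, and DESeq2 called 1 cytochrome P450 lower and 1 nicotinic receptor or ion channel higher. With 36 °C pool B left out, glutathione S-transferases had 4 higher of 18, cytochrome P450s 4 lower of 12, and energy metabolism 3 higher of 8, against 11.7% higher and 13.2% lower over all transcripts. Recombination and repair had 1 higher and 3 lower of 16, spermatid differentiation 1 and 3 of 7 and redox genes 2 and 1 of 5. The lists are not independent. GstO1 and GstO2 count in both the redox and the glutathione S-transferase lists, and NV16259 in both the spermatid and motility lists. As with motility, the spermatid, oogenesis and Notch lists hold genes that the study reports as changed between the stages, so they are a description only. Oogenesis genes, nicotinic receptors and ion channels, and serine proteases had 1 higher each, the axoneme list and translation factors 1 lower each, and the piRNA, Notch and protein breakdown lists 0. GstD5 stood at 50.8, 50 and 61.5 CPM at 36 °C against 37.6, 33.4 and 32.7 CPM at 25 °C, all heated pools being above all others (log2 fold change 0.67, adjusted p = 0.212 in edgeR with all pools, and 0.71, adjusted p = 0.0218, without 36 °C pool B). Glutathione S-transferases join glutathione to reactive compounds.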

How the data were processed

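RNA from pooled testes was sequenced on an Illumina HiSeq after TruSeq library preparation, named as stranded in the labels only. The authors mapped reads with TopHat2 (2.1.0 in the submitters' notes) and counted them per RefSeq transcript of Nvit_2.1, with htseq-count in the study's methods and featureCounts 1.6.3 in the submitters' notes. The deposited raw counts are not normalized. Of 6 deposited tables of 26279 transcripts, 2 were used, and 39 of 39 count columns held in more than 1 table were identical. The authors' own fold changes, p-values and 54 columns of normalized values were not used. Within each group no pair of pools agreed within sampling noise.

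For the 6 libraries of 10 h, and again without 36 °C pool B, transcripts kept by filterByExpr were scaled by TMM and tested by robust quasi-likelihood in edgeR 4.0.16 under R 4.3.3. A transcript passed at a Benjamini-Hochberg adjusted p under 0.05 over all transcripts tested. Standard errors (SE) are the log2 fold change over the root of F. Correlations used log2 CPM with a prior count of 2. Alternatives were DESeq2 1.42.0, RLE scaling, other filters, 12 libraries, limma 3.58.1 voom with sample quality weights, sums per gene, a minimum log2 fold change, the pool letter as replicate block and each pool left out. Same-letter pools of the 2 temperatures deviated together from their group means (r = 0.313, 0.491 and 0.188 for A, B and C, each over 0.1). So did 25 °C pool A with 36 °C pool C (0.214) and 25 °C pool C with 36 °C pool A (0.132), while pool B with an unlike letter was negative (-0.431 to -0.203). These values thus set pool B apart but do not tell the pairs of A and C apart. The letters were taken as pairing the pools in the replicate block only, which rests on these values and not on the labels. The main fits and the values of named transcripts are unpaired. The exact permutation test of 3 against 3 pools was not used, as it cannot reach the threshold.

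Named transcripts are, for each fit, the 10 largest passing rises and 10 largest falls whose pools did not overlap and whose higher group averaged 10 CPM or more, as well as chaperones and, per list, the 4 of lowest p. Others among the 47 were named after their values were seen. Members and lists were chosen with earlier results of these data known. For symbols and gene order, 11605 gene IDs were matched to RefSeq (assembly Nvit_psr_1.1). Promoter and protein sequences were not analysed here, nor were Hsf and DnaJ-1. The test was checked on simulated counts in which no pool stood apart. Their spread between pools was below that of the fit with all pools (0.299), so the check does not cover that fit. Figures were drawn with matplotlib 3.10.9 in Python 3.11.15.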

Additional observations from a re-analysis of the deposited data

Results flagged for a closer look

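Chordc1 (NV16801) lay on opposite sides of the 25 °C pools at the 2 hours. At 10 h its heated pools were all above the 25 °C pools, with a log2 ratio of the means of 0.46, and at 24 h they were all below them (102.6 to 113 CPM against 142 to 150 CPM, log2 ratio -0.42). In 1 edgeR fit over both hours without 36 °C pool B of 10 h, a test added after these values were seen, the heat difference at 24 h minus that at 10 h was -0.97 (SE 0.17, adjusted p = 0.0253). With all 12 libraries it was -0.87 (SE 0.192, adjusted p = 0.341), and in that fit 0 of 8351 transcripts passed in edgeR (654 at an unadjusted p under 0.05, no other tool run), whereas 124 of 8485 (1.46%) passed without 36 °C pool B, 84 with a larger value at 24 h and 40 with a smaller one.

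Other transcripts named here differed between the hours in the same fit, each without 36 °C pool B and none with it. The small heat shock protein gene NV13798 had a smaller heat difference at 24 h (-1.48, SE 0.306, adjusted p = 0.0378, and 0.635 with all pools). NV18444 had a larger one (1.84, SE 0.434, adjusted p = 0.0476, and 0.383 with all pools). NV11655, ortholog of lebercilin, a protein of cilia, was lower at 10 h (log2 fold change -1.68 without 36 °C pool B) and near the 25 °C level at 24 h (mean 24.9 against 27.4 CPM, overlapping), a difference between the hours of 1.57 (SE 0.364, adjusted p = 0.0471, and 0.824 with all pools).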

How the results depend on the processing

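With all pools, 38 transcripts were higher and 9 lower. The counts were 138 and 69 in DESeq2, 137 and 46 with no filter on low counts, 18 and 5 with at least 10 counts in each library, 187 and 115 with 12 libraries in 1 fit, 1287 and 1433 in limma voom with sample quality weights, and 131 and 64 with the replicate block. The cause of these differences was not tested, except that the stricter filter tested fewer transcripts. Leaving out 1 pool gave 0 to 965 higher and 0 to 1094 lower. Without 36 °C pool B, 965 were higher and 1094 lower, and a minimum log2 fold change of 1 left 429 and 674 by construction. Leaving out 1 further pool gave 313 to 1009 higher and 348 to 1150 lower, the lowest without 36 °C pool C as well as B, when pool A stood alone and was assumed to vary like the 25 °C pools. RLE scaling and counts summed per gene kept all counts within 1.5 times the main ones. Of the 47 transcripts passed with all pools, all kept their direction under the named alternatives in which they were tested, and all were called in DESeq2, in the fit of 12 libraries and with the replicate block, and 44 with RLE scaling. The muscle actin ortholog NV18317 (log2 fold change -0.43) ran from -3.68 to 0.84 as single pools were left out. The block changed the call of none of the 12 other transcripts compared, and no paired fit was made without 36 °C pool B. Depth limits the least covered pools, C at both temperatures, and transcripts with few counts there. The planned search for heat shock elements was not run, and promoter sequences were not analysed here.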
